A study of Drosophila melanogaster with 12 samples.

Results

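Calcineurin is a calcium-activated protein phosphatase. It is built from a catalytic A subunit and a regulatory B subunit, and it is switched on when calcium-loaded calmodulin binds the A subunit. In vertebrates it removes phosphate from transcription factors of the NFAT family, which then enter the nucleus, and proteins of the calcipressin family hold it in check. In neurons it is known for roles in vesicle recycling, synaptic plasticity and activity-dependent transcription. The fly genome carries a single NFAT gene, whose product is most like vertebrate NFAT5, the family member that calcineurin does not control in vertebrates.

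The 8 genes of this pathway taken here were the transcription factor gene NFAT, the catalytic subunit genes CanA-14F, Pp2B-14D and CanA1, the regulatory subunit genes CanB and CanB2, the calmodulin gene Cam, and sra, the fly calcipressin gene. They were chosen by gene name, as the core of the pathway, after the fall of NFAT and the disagreement between the CanA-14F probe sets in these same arrays had been seen. For that reason the values of NFAT and CanA-14F in every genotype are a description and carry no test. The array annotation gave 8 probe sets for 7 of the 8 genes, out of 18769 probe sets that are not array controls and 11982 genes named on the array. CanA-14F had 2 probe sets and 6 genes had 1 each. No probe set was annotated to Cam, which is therefore not analysed here, and no probe set naming several genes included a member.

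Messenger RNA was measured on 12 Affymetrix arrays of brains from 3-day-old female Drosophila melanogaster. All flies expressed a DsRed reporter through elav-GAL4, a driver of neuronal expression. The control genotype, CAG0, carried UAS-DsRed-CAG0 in 1 copy, with no repeat behind the coding sequence. CAG100 carried UAS-DsRed-CAG100 in 5 copies, with a pure run of 100 CAG units that the labels call toxic. CAA/G105 carried UAS-DsRed-CAA/G105 in 2 copies, with CAA units breaking up the CAG run, and the labels call this repeat non-toxic. The copy numbers were chosen by the submitters to equalise reporter mRNA, so genotype and copy number cannot be told apart. Each genotype had 4 arrays, each from a pool of about 20 brains stripped of eyes, lamina and outer medulla. The labels call the 4 samples independent, and p-values measure the spread between them.

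Values are the deposited log2 signals, so a step of 1 is a doubling of signal. A level is given with its SD over 4 arrays, and a difference with the SE of the limma fit over all 12 arrays. A probe set was tested where it reached log2 4, taken as the limit of measurable signal, on at least 4 arrays. This held for 8966 probe sets, including 7 of the 8 member probe sets. The remaining one, for CanA1, lay below it on every array. A probe set was called where the Benjamini-Hochberg adjusted p over all tested probe sets was under 0.05.

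Arrays of 1 genotype correlated at r = 0.9957 or more. The neuronal gene elav read 13.77 ± 0.08 in CAG0, 13.69 ± 0.03 in CAG100 and 13.73 ± 0.05 in CAA/G105, and none of 6 measured neuronal marker genes was called in any comparison. Akh, whose hormone is made in a gland that may stay on a dissected brain, had no measurable signal on 3 arrays: 2.25 on the first and 2.43 on the third CAG100 array, and 2.06 on the third CAA/G105 array. The other 9 arrays read 11.04 or more. These 3 pools stand apart, so the results below are also given without them where that matters.

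NFAT was high in the control, lower with the interrupted repeat and much lower with the pure repeat. In CAG0 its probe set read 11.37, 11.82, 12.24 and 11.87 on replicates 1 to 4. In CAA/G105 it read 10.78, 11.09, 10.76 and 10.94. In CAG100 it read 8.05, 7.95, 8.07 and 8.08. The genotypes did not overlap: every CAA/G105 array lay under every CAG0 array, and every CAG100 array lay under both.

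The mean NFAT level was 11.83 ± 0.36 in CAG0, 10.89 ± 0.15 in CAA/G105 and 8.04 ± 0.06 in CAG100. CAG100 was 13.8-fold below CAG0, a difference of -3.79 ± 0.15 on the log2 scale. CAA/G105 was 1.91-fold below CAG0, with a difference of -0.93 ± 0.15, and CAG100 was 7.24-fold below CAA/G105, with a difference of -2.86 ± 0.15. The nearest arrays of CAG0 and CAG100 were 3.29 apart, whereas those of CAG0 and CAA/G105 were 0.28 apart, less than the range of 0.87 within CAG0. All CAG100 arrays remained well above log2 4. In these bulk samples, fewer cells that express NFAT and less NFAT mRNA per cell cannot be told apart. Without the 3 arrays that lacked Akh signal the differences were -3.81, -0.89 and -2.93.

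**Figure D1:**
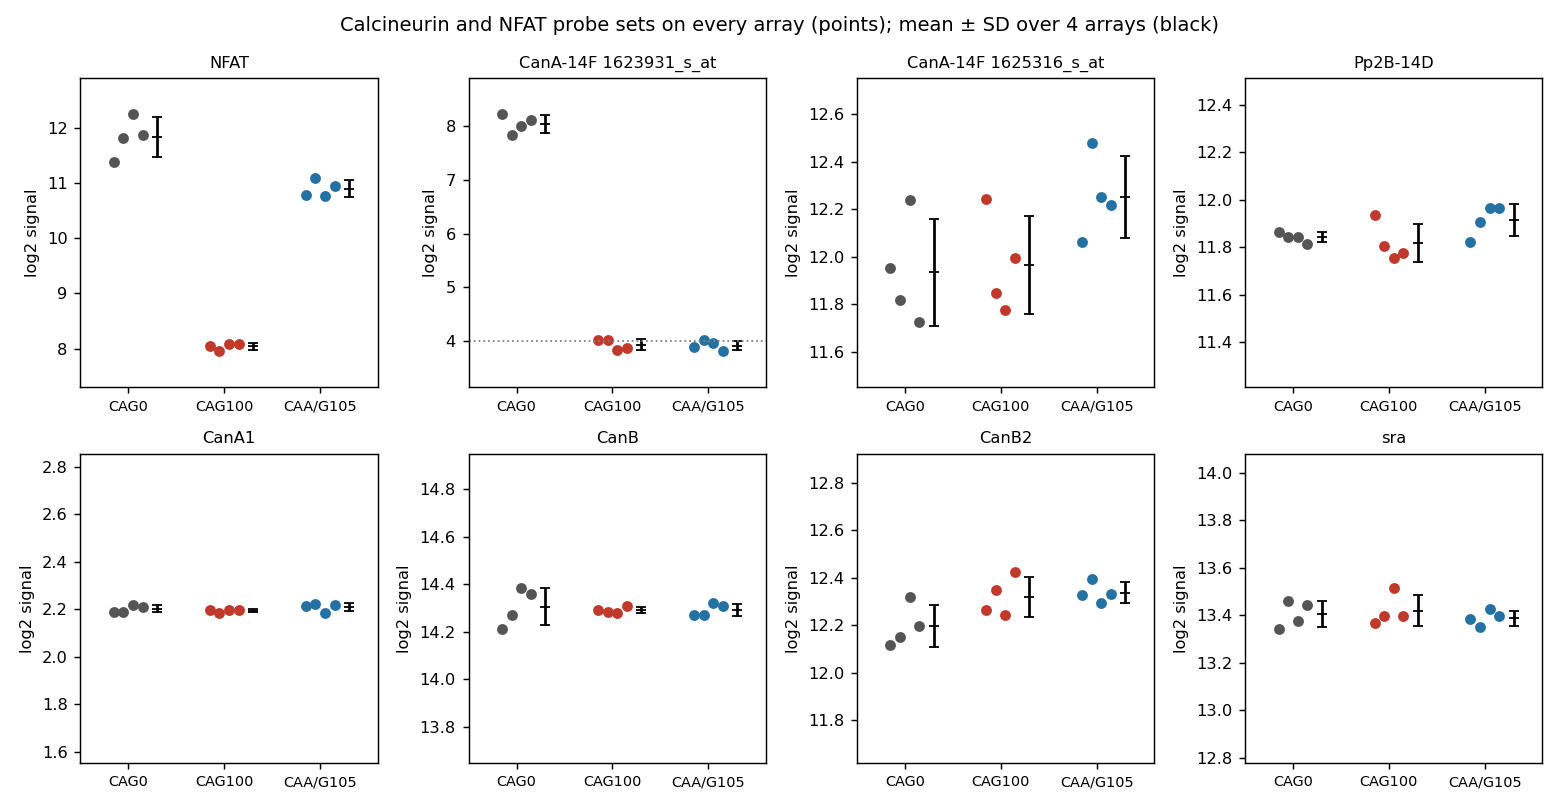
Log2 signal of each of the 8 probe sets (vertical axes, each panel with its own range) on each of the 12 arrays, in 3 genotypes; points are arrays, black marks the mean ± SD over 4 arrays, and dotted lines mark log2 4. NFAT separates all 3 genotypes and CanA-14F 1623931_s_at separates CAG0 from the others, while the arrays of the other 6 probe sets overlap between genotypes.

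CanA-14F, 1 of the catalytic subunit genes, was covered by 2 probe sets whose values went different ways. Probe set 1623931_s_at read 8.22, 7.83, 8.0 and 8.12 on the CAG0 arrays. On the CAG100 arrays it read 4.02, 4.02, 3.83 and 3.87, and on the CAA/G105 arrays 3.89, 4.01, 3.96 and 3.81. The control arrays were all high and both repeat genotypes sat at the limit of measurable signal, with 2 of 4 CAG100 arrays and 3 of 4 CAA/G105 arrays under log2 4.

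The mean was 8.04 ± 0.17 in CAG0, 3.93 ± 0.10 in CAG100 and 3.92 ± 0.09 in CAA/G105. With arrays under log2 4 set to 4, this probe set was at least 16.4-fold lower in CAG100 than in CAG0, and at least 16.5-fold lower in CAA/G105. CAG100 and CAA/G105 overlapped at the limit of the assay, so no fold is given between them. These comparisons share the CAG0 arrays.

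Probe set 1625316_s_at of the same gene read 11.95, 11.82, 12.24 and 11.72 in CAG0. It read 12.24, 11.85, 11.78 and 11.99 in CAG100, and 12.06, 12.48, 12.25 and 12.22 in CAA/G105. All 12 arrays were high and the 3 genotypes overlapped. CAG100 differed from CAG0 by 0.030 ± 0.13. CAA/G105 was 0.32 ± 0.13 above CAG0 and CAG100 was 0.29 below CAA/G105, a difference of -0.29 ± 0.13. None of these differences was called with all arrays, and they are given as a description. The ending s_at marks an Affymetrix probe set whose probes match more than 1 transcript. The probe sequences were not used here, so which exons or transcripts of CanA-14F each set reads is not given.

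**Figure D2:**
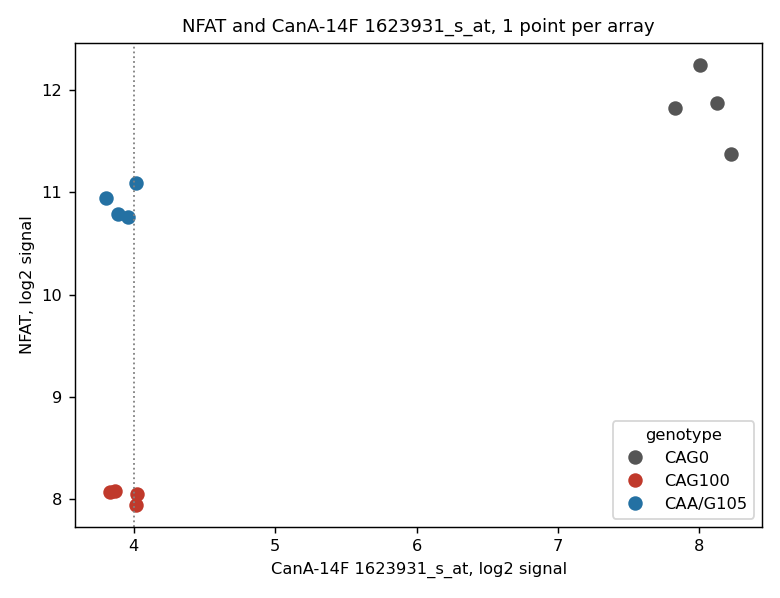
Log2 signal of NFAT (vertical axis) against CanA-14F 1623931_s_at (horizontal axis), 1 point per array, coloured by genotype; the dotted line marks log2 4. The CanA-14F probe set separates the control from both repeat genotypes, whereas NFAT places CAA/G105 at 10.76 to 11.09, near the control, and CAG100 at 7.95 to 8.08.

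Pp2B-14D encodes another catalytic subunit and is the immediate neighbour of CanA-14F on the X chromosome. It read 11.87, 11.84, 11.84 and 11.81 in CAG0, 11.94, 11.80, 11.76 and 11.78 in CAG100, and 11.82, 11.91, 11.96 and 11.97 in CAA/G105. The genotypes overlapped. CAG100 differed from CAG0 by -0.025 ± 0.048 (95% interval -0.13 to 0.081, limma adjusted p = 0.769), and CAA/G105 from CAG0 by 0.073 ± 0.048 (-0.032 to 0.18, adjusted p = 0.384). CAG100 differed from CAA/G105 by -0.098 ± 0.048 (-0.20 to 0.0072, adjusted p = 0.173). That last difference passed the threshold without CAG100 replicate 1 (-0.14, adjusted p = 0.0431) and with array weights (adjusted p = 0.0449).

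CanA1, the catalytic subunit gene on chromosome arm 3R, had no measurable signal. Its probe set lay between 2.18 and 2.22 on all 12 arrays, so no comparison was made. Differences of this size below the limit carry no order.

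The regulatory subunit genes differed little between genotypes. CanB, on the X chromosome, read 14.21, 14.27, 14.38 and 14.36 in CAG0. It read 14.29, 14.28, 14.28 and 14.31 in CAG100, and 14.27, 14.27, 14.32 and 14.31 in CAA/G105. The CAG0 arrays spread most and enclosed all the others. The difference from CAG0 was -0.015 ± 0.034 in CAG100 (95% interval -0.089 to 0.058, limma adjusted p = 0.798) and -0.013 ± 0.034 in CAA/G105 (-0.086 to 0.060, adjusted p = 0.866).

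CanB2, which encodes the other regulatory subunit, lies on chromosome arm 2R. It read 12.12, 12.15, 12.32 and 12.20 in CAG0, 12.26, 12.35, 12.24 and 12.42 in CAG100, and 12.33, 12.40, 12.29 and 12.33 in CAA/G105. Only CAG0 replicate 3 reached into the range of the repeat genotypes. CanB2 was 0.12 ± 0.053 above CAG0 in CAG100 (95% interval 0.0081 to 0.24, limma adjusted p = 0.129) and 0.14 ± 0.053 above it in CAA/G105 (0.026 to 0.26, adjusted p = 0.109). Neither passed with all arrays. Both passed without CAG0 replicate 3, at 0.17 (adjusted p = 0.0331) and 0.18 (adjusted p = 0.0255), and with array weights (adjusted p = 0.0301 and 0.0439). CAG100 and CAA/G105 differed by -0.018 ± 0.053 (-0.13 to 0.098, adjusted p = 0.845).

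The gene sra encodes the calcipressin that binds and regulates calcineurin, and eggs of mutant mothers fail at activation. It read 13.34, 13.46, 13.38 and 13.44 in CAG0, 13.37, 13.40, 13.52 and 13.40 in CAG100, and 13.38, 13.35, 13.43 and 13.40 in CAA/G105. All 3 genotypes overlapped. The difference was 0.015 ± 0.039 for CAG100 against CAG0 (95% interval -0.069 to 0.098, limma adjusted p = 0.835) and -0.017 ± 0.039 for CAA/G105 against CAG0 (-0.10 to 0.067, adjusted p = 0.841). For CAG100 against CAA/G105 it was 0.032 ± 0.039 (-0.052 to 0.12, adjusted p = 0.593). In vertebrates a calcipressin transcript is itself raised through NFAT.

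**Figure D3:**
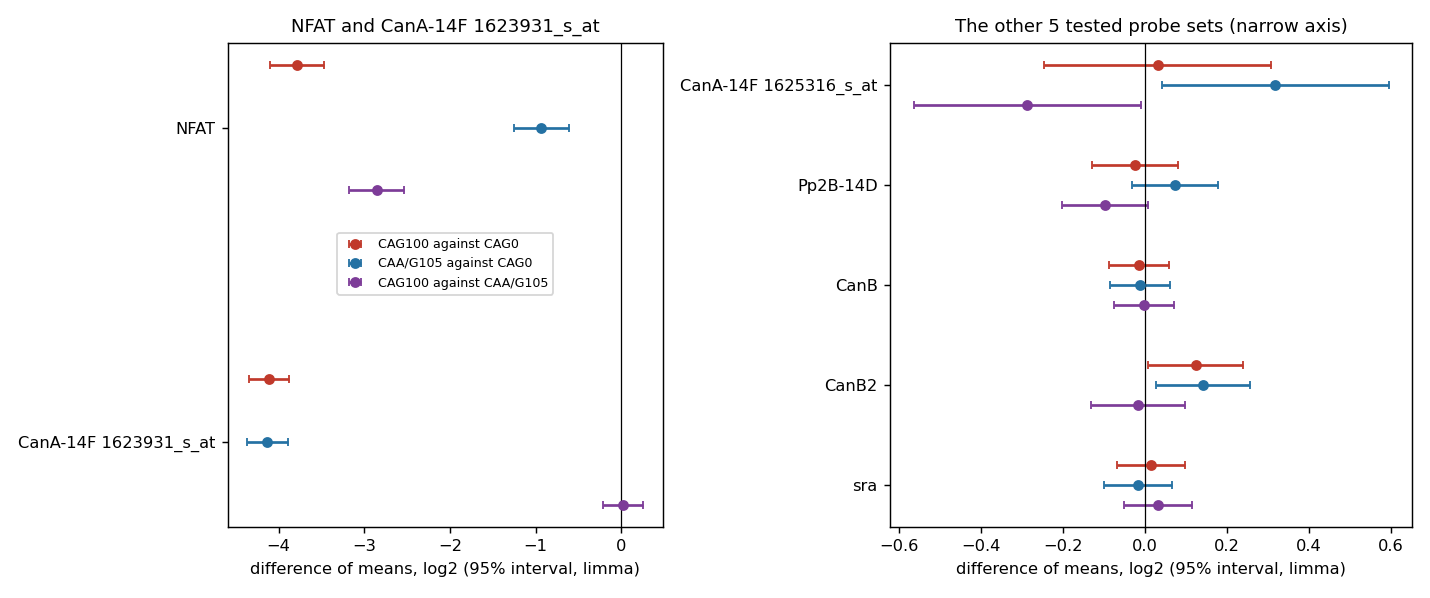
Differences of mean log2 signal (horizontal axes) for the 7 tested probe sets, with 95% intervals from limma, in 3 comparisons; the right panel has a narrower axis than the left. NFAT and CanA-14F 1623931_s_at lie far from 0 against CAG0, and the 5 others lie within 0.32 of 0. CanA-14F 1623931_s_at is drawn from the measured values, although both repeat genotypes sat at the limit of measurable signal. The intervals of NFAT and CanA-14F are a description and carry no test.

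Across the 7 tested member probe sets, 2 were called in CAG100 against CAG0, where 18.3% of all tested probe sets were called. In CAA/G105 against CAG0 the count was 2, against 13.2% of all tested probe sets. In CAG100 against CAA/G105 it was 1, against 20.8%. Every called member probe set was NFAT or CanA-14F 1623931_s_at, which were chosen with these values known, so nothing is read from the counts. None of the 4 tested probe sets of Pp2B-14D, CanB, CanB2 and sra was called in any comparison. The median difference over the 7 was -0.015, -0.013 and -0.018 in the 3 comparisons, beside -0.026, -0.0076 and -0.016 over all tested probe sets.

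Markers of other cell types were summed per array as a log2 level. The glial sum lay between 16.64 and 16.72 in CAG0, 16.61 and 16.69 in CAG100, and 16.69 and 16.72 in CAA/G105. Of 7 measured glial genes, 1 was lower in CAG100 than in CAG0 (14.3%, beside 18.3% of all tested probe sets) and 3 were higher in CAA/G105 (42.9%, beside 13.2%). Against CAA/G105, 2 glial genes were lower in CAG100 (28.6%, beside 20.8%). The count of 3 was 1 without CAG0 replicate 4 or CAA/G105 replicate 3, and that of 2 was 1 when any of 9 arrays was left out. Without the 3 arrays that lacked Akh signal the glial counts were 1, 0 and 1 in these comparisons. They were the same at an adjusted p under 0.01. Haemocyte genes summed to 15.13 to 15.51, 15.23 to 15.44 and 14.82 to 15.11 in the same order, and 4 of 10 were lower in CAA/G105 than in CAG0, beside 13.2% of all tested probe sets. This count was 1 without CAG0 replicate 1 or 2 or CAA/G105 replicate 3, and 2 without any 1 CAG100 array or CAA/G105 replicate 1. It was also 1 without the 3 arrays that lacked Akh signal. Between the repeat genotypes 3 of the 10 haemocyte genes were higher in CAG100 (30%, beside 20.8%). That count was 2 without the 3 arrays that lacked Akh signal. None of the 10 was called in CAG100 against CAG0. Muscle genes summed to 9.88 to 10.65, 9.97 to 10.35 and 8.07 to 11.35, with 2 of 7 under log2 4 on every array. The flight muscle gene fln was lower in CAA/G105 than in CAG0 (-1.96 ± 0.11, limma adjusted p = 6.9e-08) and was higher in CAG100 than in CAA/G105 (1.94 ± 0.11, adjusted p = 7.1e-08). It was the only 1 of 4 tested muscle genes called in these comparisons (25%, beside 13.2% and 20.8%). The others, up, Tm2 and Mlc2, did not follow it: they differed by 0.42, 0.31 and -0.20 in the first and by -1.92, -1.99 and -0.39 in the second. Fat body genes summed to 16.46 to 16.83, 16.68 to 16.88 and 16.48 to 16.62, and none was called against CAG0. Lsp2 averaged 7.18 in CAG0, 4.83 in CAG100 and 5.00 in CAA/G105. Its CAG0 arrays overlapped neither repeat genotype (limma adjusted p = 0.0507 and 0.0845). The other tested fat body genes overlapped between CAG0 and both repeat genotypes. Of 8 tested, 2 were higher in CAG100 than in CAA/G105 (25%, beside 20.8%). That count was 0 or 1 when any 1 array of these genotypes was left out. It was 0 without the 3 arrays that lacked Akh signal. Gland genes summed to 13.53 to 14.20, 12.77 to 13.60 and 12.86 to 14.35. Jheh2 was level, at 12.93, 12.93 and 12.94 in the same order. Akh averaged 12.27, 6.87 and 9.68, and Jhamt 10.69, 5.33 and 9.18, with no overlap of CAG100 and CAG0 for either. None of the 3 was called in any comparison. Without the 3 arrays that lacked Akh signal, 1 was lower in CAG100 than in CAG0 and 1 than in CAA/G105. The photoreceptor sum, over the 4 of 11 listed genes with a probe set, ranged from 8.03 to 10.73 with overlap of all genotypes. The part of these tissues in the NFAT and CanA-14F values was not tested.

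Genes whose profile over the 12 arrays was most like that of NFAT were found by Pearson's r among tested probe sets that name 1 other gene. The arrays fall into genotypes, so r mainly reflects the order CAG0, CAA/G105, CAG100. The 5 highest were CG13284 (r = 0.99), CG4511 (r = 0.98), St3 (r = 0.98), Rnf11 (r = 0.97) and Or63a (r = 0.97). CG13284 averaged 9.66 in CAG0, 8.13 in CAA/G105 and 2.85 in CAG100, where all 4 arrays lay under log2 4. Rnf11 averaged 13.50, 13.17 and 11.96, and Or63a, an odorant receptor gene, 10.53, 9.93 and 7.32. The 5 lowest were tyn (r = -0.99), the kainate receptor gene Ekar (r = -0.98), CG42676 (r = -0.98), RnrL (r = -0.97), the large subunit gene of ribonucleotide reductase, and CG14937 (r = -0.97). Averages of tyn were 6.22 in CAG0, 7.45 in CAA/G105 and 10.74 in CAG100. Apart from tyn, none of these 10 genes lies on the X chromosome with NFAT. Among the members, r with NFAT was 0.68 for CanA-14F 1623931_s_at and 0.17 for 1625316_s_at, and -0.36 to 0.30 for Pp2B-14D, CanB, CanB2 and sra.

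The genes next to NFAT on the X chromosome were compared as well, using the gene order of Release 6 of the fly genome. The 3 nearest measured genes on each side were CG11178, tth and CG2691, and DNAlig4, CG15760 and CG12177. Their differences between CAG100 and CAG0 ran from -0.52 to 0.47, against -3.79 for NFAT. In this comparison 2 of the 6 neighbours were called, beside 18.3% of all tested probe sets. CG2691, the next gene, was lower in CAG100, with a difference of -0.52 ± 0.095 (limma adjusted p = 0.00265), which passed in all 23 alternatives at the threshold of 0.05 and also at 0.01. CG12177 was 0.47 ± 0.15 higher (adjusted p = 0.0425), a call lost under 13 of 23 alternatives, including each of 8 left-out arrays. None of the 6 was called between CAA/G105 and CAG0, beside 13.2% of all tested probe sets, and differences there ran from -0.27 to 0.33. In CAG100 against CAA/G105, 1 of the 6 was called, beside 20.8%. It was CG11178 (-0.20 ± 0.046, limma adjusted p = 0.00965), whose call passed in 22 of 23 alternatives. It did not pass without the 3 arrays that lacked Akh signal (adjusted p = 0.0883).

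Around CanA-14F the measured neighbours were Cnx14D, CG9902 and Pp2B-14D on one side and SMC3, Ubc7 and CG9784 on the other. Differences between CAG100 and CAG0 ran from -0.43 to 0.063, and between CAA/G105 and CAG0 from -0.19 to 0.098. In CAG100 against CAG0, 2 of the 6 were called, beside 18.3% of all tested probe sets, and none in either other comparison. The 2 were CG9902 (-0.43 ± 0.13, limma adjusted p = 0.0394) and SMC3, a cohesin subunit gene (-0.25 ± 0.077, adjusted p = 0.0453). Both calls were lost when any of several arrays was left out. The sodium channel gene para, a further measured neighbour of Pp2B-14D, differed between CAG100 and CAG0 by -0.28 ± 0.14 (adjusted p = 0.187) and was not called. None of the 6 genes around CanB was called in any comparison, beside 18.3%, 13.2% and 20.8% of all tested probe sets. Their differences stayed between -0.19 and 0.15.

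**Figure D4:**
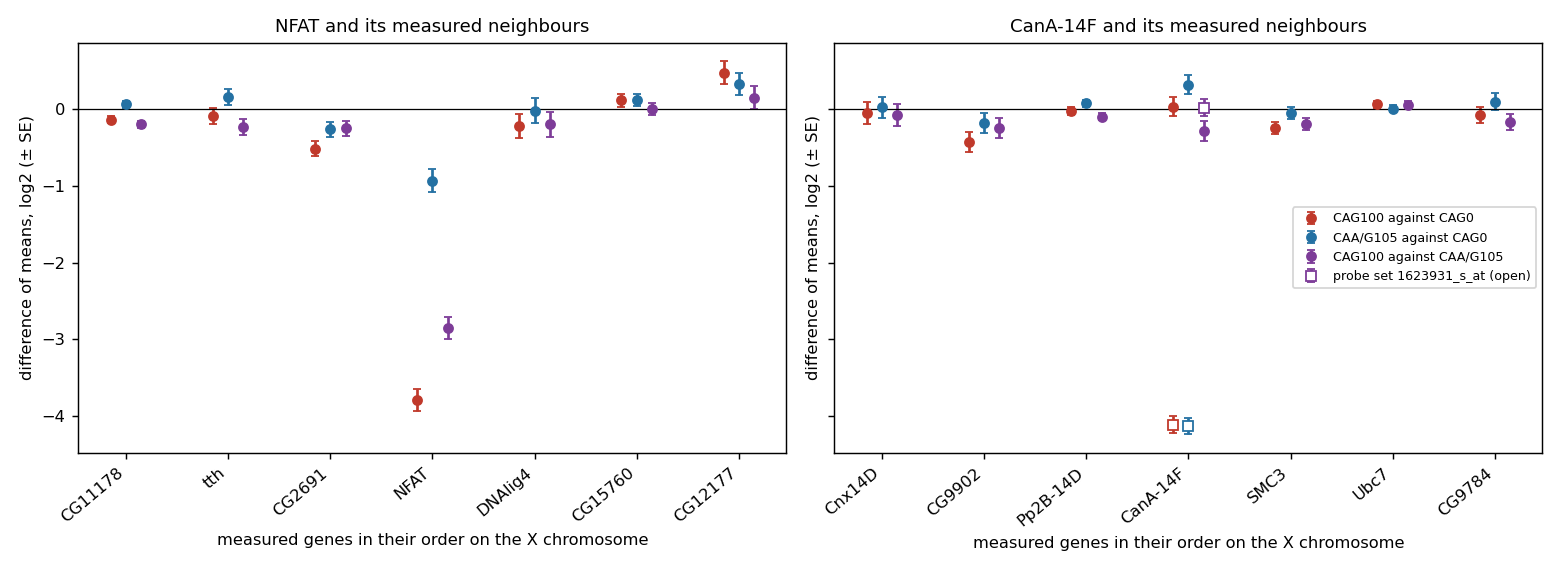
Differences of mean log2 signal ± SE (vertical axis) for NFAT (left) and CanA-14F (right) and the 3 measured genes on each side, in gene order, in 3 comparisons; for CanA-14F filled circles are probe set 1625316_s_at and open squares 1623931_s_at. The measured neighbours lie between -0.52 and 0.47.

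Genes around calcineurin were then counted in 8 lists, with 1 probe set per gene. Over all tested probe sets, 18.3% were called in CAG100 against CAG0, 13.2% in CAA/G105 against CAG0 and 20.8% in CAG100 against CAA/G105, and each list's share is set beside these. A call is named stable below where it passed at an adjusted p under 0.05 in all 23 alternatives run at that threshold. The transcription factors that share the Rel homology domain with NFAT were all measured: dl and Dif, of the Toll pathway, and Rel, of the IMD pathway. Of these 3 genes, 1 was lower and 1 higher in CAG100 against CAG0, or 66.7% beside 18.3%. In CAA/G105 against CAG0 1 was lower, or 33.3% beside 13.2%. In CAG100 against CAA/G105 1 was lower, or 33.3% beside 20.8%. In CAG100, dl averaged 8.20 ± 0.14 against 8.94 ± 0.14 in CAG0 (-0.74 ± 0.096, limma adjusted p = 0.000238). In CAA/G105 dl averaged 8.54 ± 0.09 (-0.40 ± 0.096, adjusted p = 0.0147). Both calls were stable, although that of CAA/G105 did not pass at an adjusted p under 0.01, and the dl arrays of CAG0 lay above all others. Between the repeat genotypes dl was lower in CAG100 (-0.34 ± 0.096, limma adjusted p = 0.0267), a call lost under 4 of 23 alternatives. Rel rose in CAG100 from 9.69 ± 0.24 to 10.27 ± 0.22 (0.58 ± 0.14, adjusted p = 0.0137), but did not pass without the 3 arrays that lacked Akh signal (0.54, adjusted p = 0.108). With Dif, which was not called, the median of the 3 genes was -0.082 in CAG100 and -0.017 in CAA/G105.

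Kinases that phosphorylate NFAT proteins in vertebrates, or relatives of them, had 8 of 13 listed genes measured. Against CAG0, 1 was lower in CAG100 and 1 in CAA/G105, in both cases Dyrk3, or 12.5% beside 18.3% and 13.2%. Both calls were lost when any of several arrays was left out, 6 of 12 in CAG100 and 10 of 12 in CAA/G105. The casein kinase gene dco was lower in CAG100 than in CAA/G105 (-0.22 ± 0.043, limma adjusted p = 0.00405), a stable call and the only one of the 8 in that comparison (12.5%, beside 20.8%). The kinase gene mnb, the fly DYRK1A gene, differed from CAG0 by -0.14 ± 0.061 in CAG100 (adjusted p = 0.139).

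Genes for calcium entry, stores and pumps had 17 of 18 members tested. In CAG100 against CAG0, 5 were lower and none higher, or 29.4% of the list beside 18.3% of all tested probe sets. The median was -0.11, beside -0.026 over all. The count rested on single arrays: it was 3 without CAG0 replicate 1 or 4, and 2 without CAG0 replicate 2 or CAG100 replicate 2, 3 or 4. RyR, the ryanodine receptor that releases stored calcium, read 11.61, 11.55, 11.21 and 11.53 in CAG0 and 11.16, 10.83, 10.80 and 10.73 in CAG100. No array overlapped between these genotypes, and the difference was -0.59 ± 0.11 (limma adjusted p = 0.00289). The gene stj, for an auxiliary subunit of voltage-gated calcium channels, was lower by a difference of -0.34 ± 0.057 (adjusted p = 0.00153). Both calls were stable, whereas Itpr, the IP3 receptor gene (-0.45 ± 0.13, adjusted p = 0.0259), did not pass when CAG0 replicate 1 or 2 or CAG100 replicate 2, 3 or 4 was left out (adjusted p up to 0.0780). The calcium channel gene Ca-alpha1D (-0.18 ± 0.054, adjusted p = 0.0400) was lost under 13 of 23 alternatives. The fifth lower gene was cac, for another calcium channel subunit (-0.15 ± 0.043, adjusted p = 0.0281), named after its value was seen. Whether the cac call held under each alternative was not recorded. In CAA/G105 against CAG0, RyR was the only list gene called (-0.41 ± 0.11, adjusted p = 0.0275), and the call was lost without CAG0 replicate 1, 2 or 4 or CAA/G105 replicate 4. Stim and Orai, which together carry store-operated entry, differed from CAG0 in CAG100 by -0.029 ± 0.066 and -0.23 ± 0.077, and neither was called. In CAG100 against CAA/G105, 3 of the 17 were lower, or 17.6% beside 20.8%: Orai (-0.29 ± 0.077, limma adjusted p = 0.0198), stj (-0.21 ± 0.057, adjusted p = 0.0199) and EMRE, of the mitochondrial calcium uniporter (-0.19 ± 0.047, adjusted p = 0.0126). That count was 1 without CAG100 replicate 3 or 4 or CAA/G105 replicate 3.

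A list of kinases, enzymes and other genes grouped around calmodulin had 9 of 12 listed genes tested. The kinase genes CaMKI and CaMKII had no probe set. In each comparison 1 of the 9 was called, or 11.1%, beside 18.3%, 13.2% and 20.8%. Pde1c, a calmodulin-stimulated phosphodiesterase gene, was lower in CAG100 than in CAG0 (-0.29 ± 0.064, limma adjusted p = 0.00799) and than in CAA/G105 (-0.33 ± 0.064, adjusted p = 0.00312), and both calls were stable. PpD3, a phosphatase gene that stands on this list and on the phosphatase list, differed between CAA/G105 and CAG0 by 0.16 ± 0.040 (adjusted p = 0.0196), a call lost without CAA/G105 replicate 1 or 4 or without the 3 arrays that lacked Akh signal. A list named for EF-hand calcium sensors, not all of whose genes need be sensors, had 9 tested genes. Of these, 2 were higher and 1 lower in CAG100 against CAG0, or 33.3% beside 18.3%. In CAA/G105 2 were higher, or 22.2% beside 13.2%. The 3 in CAG100 were Frq2 (0.39 ± 0.10, adjusted p = 0.0213), Eps-15 (0.38 ± 0.10, adjusted p = 0.0246) and Nca (-0.10 ± 0.024, adjusted p = 0.00997). Without the 3 arrays that lacked Akh signal they were 0.38, 0.32 and -0.097, and none passed (adjusted p = 0.054, 0.183 and 0.0964). The 2 in CAA/G105 were Frq2 and elm, the latter lost when any of 4 arrays was left out. Frq2, a neuronal calcium sensor gene, rose in CAA/G105 from 10.01 ± 0.17 to 10.57 ± 0.06 (0.56 ± 0.10, adjusted p = 0.00331), a stable call. In CAG100 against CAA/G105, 1 of the 9 genes of this EF-hand list, Eps-15, was higher, or 11.1% beside 20.8%. That call did not pass without the 3 arrays that lacked Akh signal.

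Immunophilin genes, whose products include the receptors of the calcineurin-blocking drugs FK506 and cyclosporin, had 14 tested members. Of these 1 was higher and 1 lower in CAG100 against CAG0, or 14.3% beside 18.3%, and none was called in CAA/G105 against CAG0. The calls in CAG100 were Cyp1 (0.083 ± 0.027, limma adjusted p = 0.0492), lost under 18 of 23 alternatives, and CG7768 (-0.89 ± 0.25, adjusted p = 0.0276), lost under 6. Neither passed without the 3 arrays that lacked Akh signal. In CAG100 against CAA/G105, 2 were higher and 1 lower, or 21.4% beside 20.8%, and none passed without those arrays. Fkbp12, the gene for the FK506 receptor, differed by 0.076 ± 0.070 in CAG100 against CAG0 (limma adjusted p = 0.490). Genes for targets and effectors of calcineurin known from flies or other species had 8 tested members, none called in CAG100 against CAG0. In CAA/G105 against CAG0, 1 was higher, or 12.5% beside 13.2%. This was foxo, whose call was lost under 7 of 23 alternatives. Against CAA/G105, 3 of the 8 were lower in CAG100, or 37.5% beside 20.8%: foxo (-0.39 ± 0.089, adjusted p = 0.00885), the CREB coactivator gene Crtc (-0.20 ± 0.050, adjusted p = 0.0131) and the dynamin gene shi (-0.27 ± 0.085, adjusted p = 0.0397). Without the 3 arrays that lacked Akh signal the differences were of similar size, at -0.43, -0.22 and -0.27, and none passed with the fewer arrays (adjusted p = 0.0712, 0.0734 and 0.177). The calls of foxo and Crtc passed in the other 22 alternatives, whereas that of shi was lost under 12 of 23, including 7 of the 12 left-out arrays.

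Other genes of the phosphatase family, catalytic and regulatory, had 10 tested members, of which 2 were lower in CAG100 and 1 lower and 1 higher in CAA/G105, each against CAG0. These are 20% of the list beside 18.3% and 13.2% of all tested probe sets. Pp4-19C, the catalytic subunit gene of protein phosphatase 4, was among the lower genes in both (-0.17 ± 0.052, limma adjusted p = 0.0391, and -0.19 ± 0.052, adjusted p = 0.0320), and its calls were lost under 13 and 8 of 23 alternatives. The regulatory subunit gene wdb of protein phosphatase 2A was lower in CAG100 than in CAG0 (-0.30 ± 0.073, limma adjusted p = 0.0136) and than in CAA/G105 (-0.44 ± 0.073, adjusted p = 0.00118). Both calls were stable, and the first did not pass at an adjusted p under 0.01. In CAG100 against CAA/G105, 2 of the 10 were lower, or 20% beside 20.8%. These were wdb and flfl, and the call of flfl was lost under 5 of 23 alternatives.

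**Figure D5:**
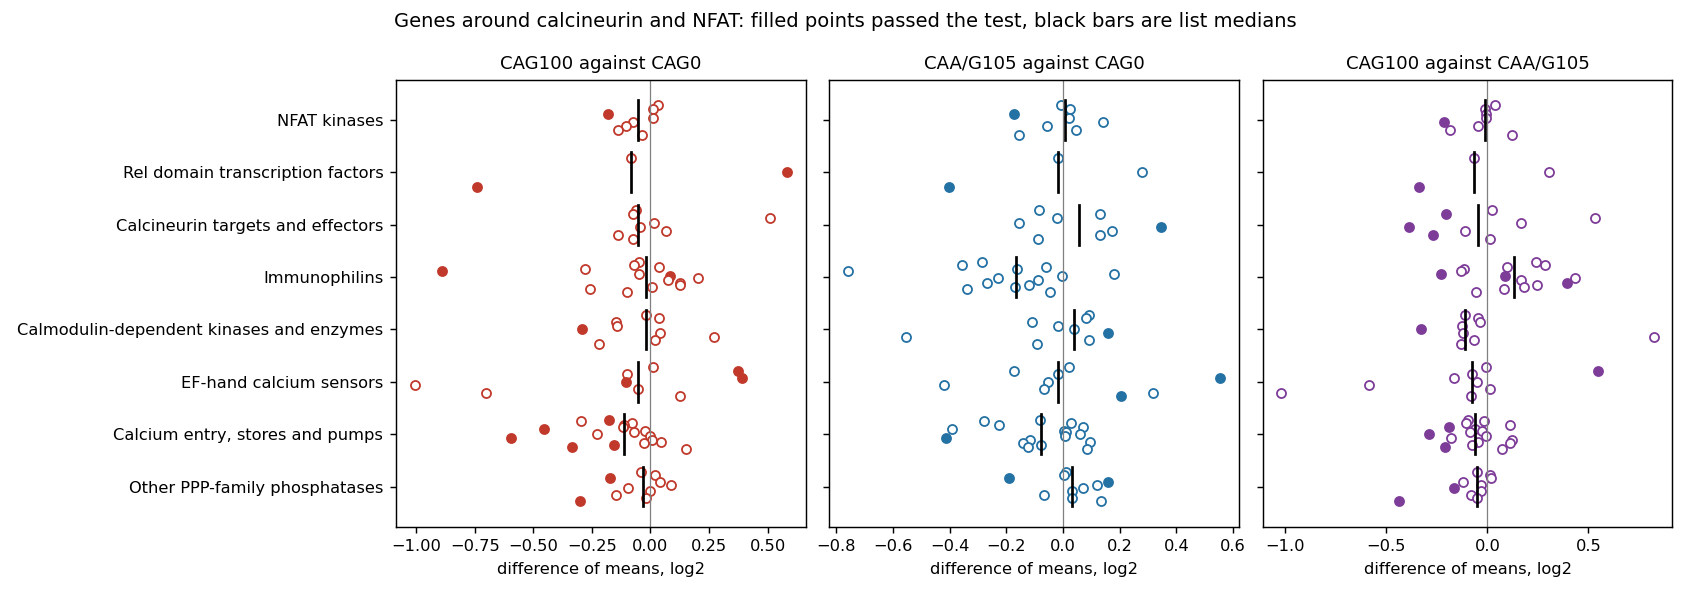
Differences of mean log2 signal (horizontal axes) for the tested genes of 8 lists in 3 comparisons, 1 point per gene; filled points were called and black bars are list medians. Genes for calcium entry, stores and pumps show 5 filled points, all below 0, in CAG100 against CAG0 (29.4%, beside 18.3% of all tested probe sets). That count fell to 2 or 3 when any of 6 arrays was left out.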

How the data were processed

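Brains of 3 genotypes, 4 samples each, were profiled on 1-colour arrays. Per the labels, cDNA made from total RNA was amplified (Ovation Pico WTA, NuGEN) and then biotin-labelled. Per the submitters' processing notes, the deposited log2 values were made with GCRMA and Partek; versions, settings and a genome build are not given in the sources used here. The values, 1.75 to 15.96, were used as deposited. Precision is limited by how many arrays there are.

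Of 18952 probe sets, 183 are controls. A single gene is named for 13647 of the others, several genes for 402, and no gene for 4720. Names came from the array annotation, and 13544 single-gene probe sets matched a RefSeq gene table of Release 6 plus ISO1 MT, used for names and gene order only. No coordinates or sequences are reported.

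In limma 3.58.1 (R 4.3.3), genotype means were fitted with a trended variance over the 8966 probe sets that reached log2 4 on at least 4 arrays, with Benjamini-Hochberg adjustment and a threshold of 0.05. It was tested on simulated data. Lists used the probe set with the highest mean per gene. Members and lists were chosen with earlier results of these data known. The rule for named genes took all members, up to 4 called genes per list and comparison, the 5 genes most and least like NFAT, and 3 measured neighbours per side. Which called list genes were described was chosen after the values were seen, as were the uncalled examples (mnb, Dif, Stim, Orai, Fkbp12). Same-numbered arrays did not deviate together (r = -0.259 to 0.390), so replicate numbers were not used as pairs. Alternatives covered the filter, scaling, variance model, array weights, threshold, replicate block and left-out arrays.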

Additional observations from a re-analysis of the deposited data

Results flagged for a closer look

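In 24 groups of 4 arrays, 8 probe sets in 3 genotypes, 1 array stood apart from its group by a gap above the 95% critical value of Dixon's test, about as many as the 1 in 20 that chance gives. This was CanA1 in CAG100, where replicate 2 read 2.18 against 2.20 on the others; all are below measurable signal.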

How the results depend on the processing

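NFAT and CanA-14F were chosen with their values known, so their stability is no support and is given as ranges only; with a filter of log2 4 on all 12 arrays CanA-14F 1623931_s_at was not tested. Over the alternatives NFAT ran from -3.94 to -3.65 in CAG100 against CAG0 and from -1.08 to -0.79 in CAA/G105 against CAG0. With the replicate block NFAT stayed at -3.79 and the member counts stayed at 2, 2 and 1; 3 of 12 same-numbered pairs correlated above 0.1, and the block changed no member's call.

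At an adjusted p under 0.01, 797, 642 and 979 probe sets were called in CAG100 against CAG0, CAA/G105 against CAG0 and CAG100 against CAA/G105. Without the 3 arrays that lacked Akh signal, with fewer arrays to test, the first and last were 948 and 924. The member count was 1 in each comparison with CAG0 under the filter on all arrays, and with array weights 4 in CAA/G105 against CAG0 and 3 in CAG100 against CAA/G105. Leaving out 1 array gave 2 to 4 and 1 to 3 in those comparisons, the highest counts without CAG0 replicate 3 and without CAG100 replicate 1, where CanB2, Pp2B-14D or CanA-14F 1625316_s_at passed; the cause was not tested.

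Of 480 recomputed member differences 434 kept direction and call, 10 newly passed and 36 changed sign, all of the last uncalled and near 0. In CAG100 against CAG0, sra became -0.012 with arrays shifted to a common median, -0.0015 with array weights and -0.0077 without the arrays lacking Akh, CanA-14F 1625316_s_at -0.0145 without those arrays, Pp2B-14D 0.0021 with quantile normalization and with a common median of tested probe sets (a scaling chosen after seeing the data), and CanB 0.012 with the latter. That scaling turned CanB and sra to 0.023 and 0.019 in CAA/G105 against CAG0. In CAG100 against CAA/G105, CanA-14F 1623931_s_at became -0.018 with a common median and -0.021 with quantile normalization, sra -0.0053 with a common median, CanB2 0.0024 with array weights and 0.034 without the arrays lacking Akh, and CanB 0.0125 without them. Leaving out 1 array gave -0.063 to 0.13 for CanA-14F 1625316_s_at, -0.047 to 0.010 for CanB and -0.018 to 0.033 for sra in the first comparison. It gave -0.044 to 0.013 for CanB and -0.039 to 0.0015 for sra in the second. In the third it gave -0.018 to 0.054 for CanA-14F 1623931_s_at, -0.0096 to 0.0068 for CanB, -0.052 to 0.0078 for CanB2 and -0.0005 to 0.049 for sra. Of 43 calls among list genes and neighbours, 11 passed in all 23 alternatives at the threshold of 0.05, 9 of these also at 0.01, 18 passed when each array was left out, and none changed sign. With 4 arrays per genotype, differences within the intervals given are not resolved.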
